A study of Mus musculus with 70 samples.

Results

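The 9 genes described here encode transcription factors that pattern the developing cerebral cortex: Pax6, Emx1, Emx2, Lhx2, Nr2f1, Nr2f2, Sp8, Fezf1 and Bhlhe22. They were chosen by symbol, and all 9 were found among the 23078 genes of the deposited expression table. RNA had been sequenced from fluorescent cells sorted out of micro-dissected mouse dorsal cortex. All groups were labelled wild-type on a C57Bl/6 background and differed in reporter line, cell type and age. Neural stem cells (NSC) came from the Hes5::GFP line, in which the Notch target Hes5 drives the reporter, with 33 libraries daily from embryonic day (E) 10.5 to E18.5 and at postnatal day 1 (PN). Basal progenitors (BP) came from the Tbr2::GFP line, with 23 libraries over 8 stages from E12.5 to PN. Newborn neurons (NBN) came from the same Tbr2::GFP line, with 14 libraries over 5 stages from E15.5 to PN. Each of the 23 groups held 2 to 4 libraries. NSC thus differ from BP and NBN in reporter line as well as in cell type, and the effects of each cannot be told apart.

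In the early telencephalon, signalling centres at its borders release FGF, WNT and BMP proteins, and the neural stem cells between them respond with graded levels of transcription factors. Pax6 and Sp8 are known to be high towards the front, and Emx2, Nr2f1 and Nr2f2 towards the back, so that loss of one of them shifts or resizes cortical areas. Lhx2 selects cortical over hem fate, Fezf1 helps to pattern the forebrain and olfactory system, and Bhlhe22 acts later, in postmitotic neurons, on area identity and axon paths. Each library here came from dorsal cortex as a whole, so positions along these gradients were not measured.

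Levels are given as TPM, the share of all transcripts taken by a gene, corrected for transcript length and scaled to a fixed total. Sequencing depth is unknown because TPM does not keep it, and a value of 0 means only that a gene was listed at 0. Tests compared log2(TPM + 1) with limma over 15508 genes, a scale that understates the change of low genes. A gene was called where the Benjamini-Hochberg adjusted p was below 0.05 and the log2 difference was at least 1 in size. All 9 members passed the filter on low values, a group mean of 1 TPM or more in any group. Separate animals or cultures are not named for the replicates in the labels. The p-values therefore cover the spread among libraries alone, part of which may be technical.

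The sequences before the transcription start are shown for 3 members that the levels set apart: Pax6 and Sp8 were the members called lower in BP than in NSC, whereas Lhx2 had the highest group mean of the 9, in BP. RefSeq starts on GRCm38.p6 were found for 8 of the 9 members, in 13 windows. Each line gives the 250 bases before the first listed start, 5′ to 3′, and no base of these 3 windows lies in an annotated exon. Capitals mark GGGCGG, the GC box bound by SP family factors.
Pax6: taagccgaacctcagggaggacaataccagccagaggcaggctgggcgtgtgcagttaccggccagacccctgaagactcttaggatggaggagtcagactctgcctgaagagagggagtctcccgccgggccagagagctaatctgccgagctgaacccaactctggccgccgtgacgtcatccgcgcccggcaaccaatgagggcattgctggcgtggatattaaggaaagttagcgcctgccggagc
Sp8: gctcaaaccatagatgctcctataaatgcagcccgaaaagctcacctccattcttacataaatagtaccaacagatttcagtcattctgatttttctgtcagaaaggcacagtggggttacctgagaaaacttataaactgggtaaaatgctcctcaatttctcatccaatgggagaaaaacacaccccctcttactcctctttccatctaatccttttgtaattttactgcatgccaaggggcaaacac
Lhx2: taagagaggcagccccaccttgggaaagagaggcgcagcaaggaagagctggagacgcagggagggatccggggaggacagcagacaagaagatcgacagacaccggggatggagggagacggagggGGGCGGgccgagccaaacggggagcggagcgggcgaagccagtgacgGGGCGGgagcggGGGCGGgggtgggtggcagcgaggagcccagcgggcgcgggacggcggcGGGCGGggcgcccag
The windows are chr2:105668646-105668895 for Pax6, chr12:118846079-118846328 for Sp8 and chr2:38339031-38339280 for Lhx2, all on the plus strand. The Lhx2 window held 4 GC boxes at 72.8% G and C. The Pax6 window at 60.8% and the Sp8 window at 40.8% held none, beside a median of 52.4% over all RefSeq windows. A further Sp8 window, at 67.2%, held 1 GC box, and another, at 50%, held none. The further windows of Lhx2, at 68.4%, and of Pax6, at 47.6%, held none. The contrast of these genes thus applies to their first listed starts alone. On either strand, GGGCGG was found in 6 of the 13 member windows and in 32.7% of 32851 windows of the same length. TAATTA, a homeodomain core, was in 1 member window and 4.84% of all windows. AGGTCA, a nuclear receptor motif, was in 1 and 14% respectively, and CATATG, an E-box, in none and 3.46%.

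The sorted fractions were checked against marker genes. Hes5 ran from 47.4 to 536 TPM in NSC, from 2.33 to 8.21 in BP and from 1.94 to 7.42 in NBN libraries. Eomes, which encodes Tbr2, ran from 249 to 715 TPM in BP and from 6.15 to 47.5 in NBN, but also from 20.9 to 737 in NSC. A list of 9 neuronal genes summed to between 415.1 and 6859 TPM in NSC, 4249 and 7654 in BP, and 6807 and 10740 in NBN libraries. One PN library was NSC by its title and basal progenitor by its cell type field. It was kept as NSC, and without it none of 36 member values in 4 comparisons gained or lost a call. All 70 libraries were labelled female, yet 43 had Y-linked transcripts summing to over 10 TPM, and a term for this changed none of 72 member calls. Both settings were chosen after the data were seen.

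**Figure D1:**
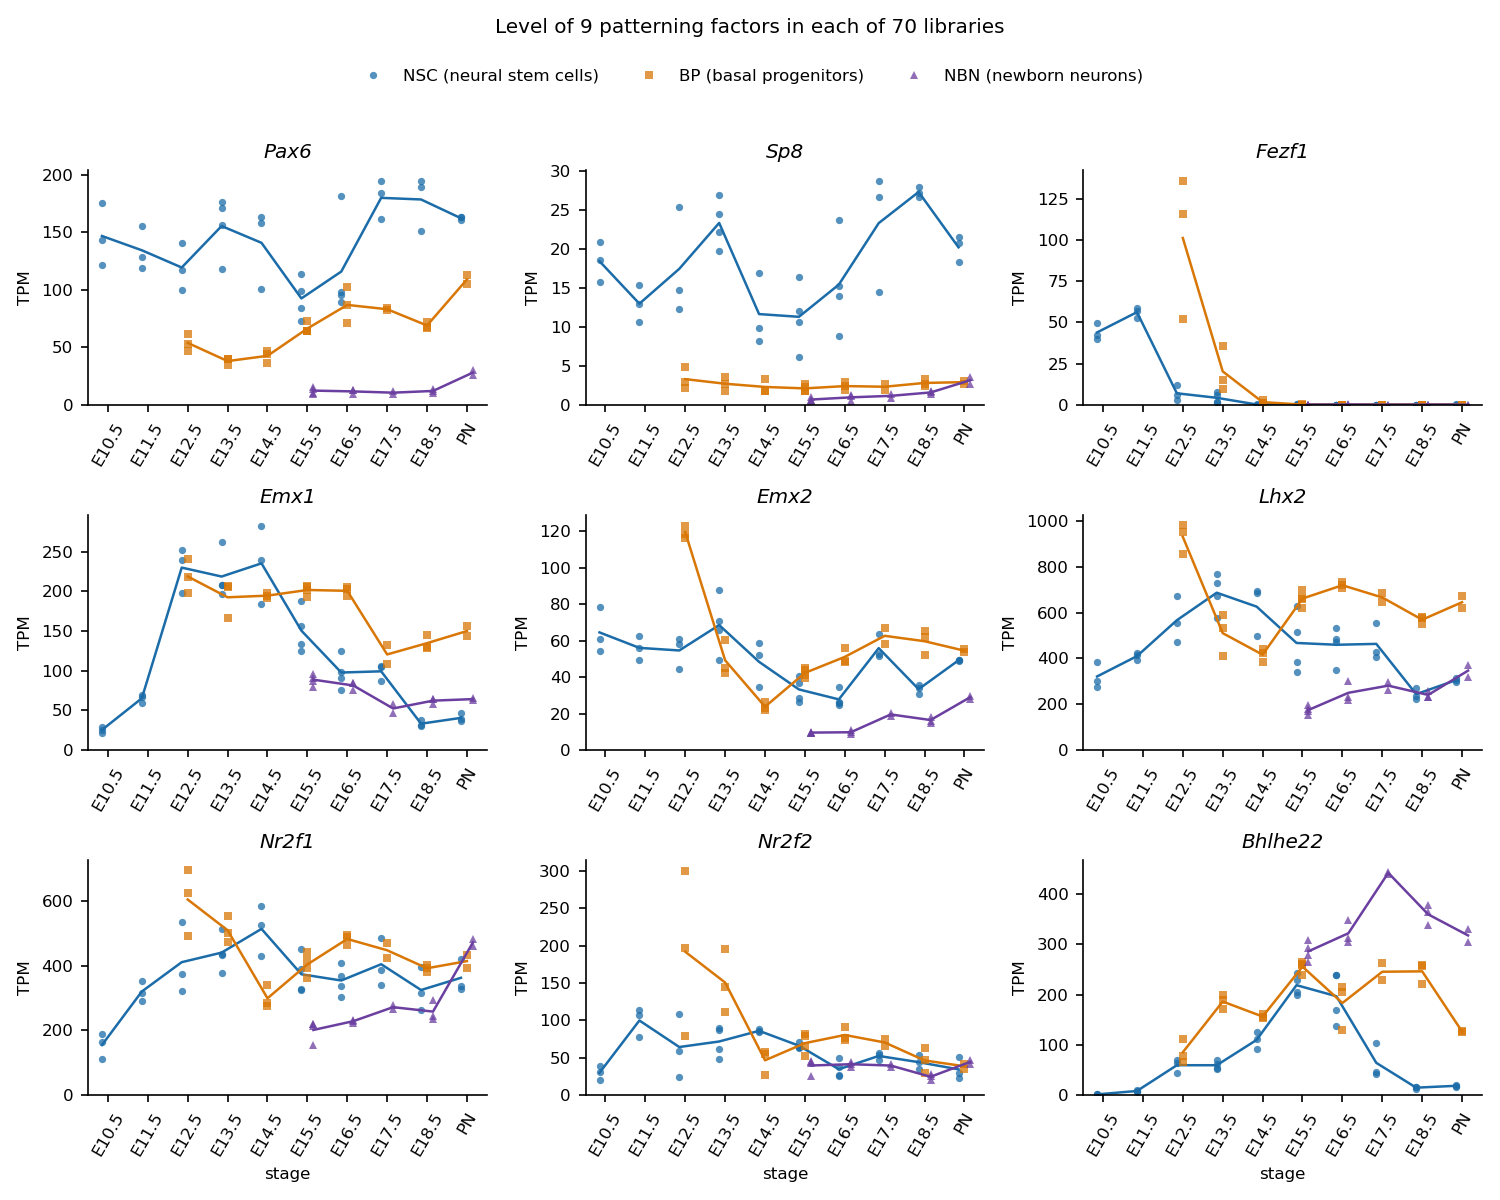
Level in TPM (y axis, from 0) of each of the 9 members against stage (x axis, E10.5 to PN). Points are libraries, lines join group means and colours give the cell type: NSC (33 libraries), BP (23) and NBN (14). Sp8 lies higher in NSC than in BP at each of 8 stages, Bhlhe22 higher in NBN than in NSC at each of 5, and Fezf1 stays under 1 TPM from E15.5 on.

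Pax6 and Sp8, the factors of the rostral side, were lower in BP than in NSC. Pax6 encodes a paired box and homeodomain factor of radial glia that also promotes their neurogenic divisions (chromosome 2, 105668900 to 105697364, GRCm38, plus strand). Its level stepped down along the lineage, with NSC libraries from 72.7 to 195 TPM (median 151), BP libraries from 34.6 to 113 (median 64.3) and NBN libraries from 8.94 to 29.8 (median 12.3). Over the 8 shared stages the log2 difference of BP from NSC was -1.08 ± 0.07 (SE, limma adjusted p = 9.67e-21), at 66.1 ± 22.2 against 141 ± 38.3 TPM (SD, 23 and 27 libraries). All BP libraries were below all NSC libraries at 6 of 8 stages. At E13.5 Pax6 stood at 171, 118, 156 and 176 TPM in NSC and at 39.5, 39.8 and 34.6 in BP.

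At the remaining stages, E15.5 and E16.5, the fractions overlapped. At E15.5 the NSC libraries stood at 84.4, 99.1, 114 and 72.7 TPM and the BP libraries at 73.1, 64.3, 63.9 and 64.0. At E16.5 they stood at 98.1, 89.0, 95.1 and 181 in NSC, where replicate 4 was apart from the rest, and at 102, 71.2 and 87.1 in BP. These were also the NSC stages with the largest sums of the neuron list, 6268 and 5508 TPM on average, against 461.4 to 4183 at the other NSC stages. The part of neuronal RNA in the overlap was not tested. In such bulk libraries, fewer cells of a type and less RNA per cell cannot be told apart.

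Pax6 was lower again in NBN, by a log2 difference of -2.48 ± 0.09 from BP (limma adjusted p = 5e-30) and -3.25 ± 0.09 from NSC (limma adjusted p = 2.06e-37). NBN libraries were below BP libraries, and below NSC libraries, at 5 of 5 stages. The pattern against BP was shared by 18.6% of tested genes, and the share for that against NSC is not reported here. At E18.5 Pax6 stood at 67.9, 72.1 and 66.8 TPM in BP and at 11.7, 10.4 and 13.9 in NBN. The PN libraries of NBN, at 29.8 and 26.2 TPM, were above all others of that cell type. In the order of the 23 group means, NSC at E17.5 came first with 180 TPM. Neighbours overlapped in 18 of 22 pairs, and all BP groups lay above all NBN groups, with a gap between BP at E13.5 and NBN at PN.

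Sp8 encodes a zinc finger factor that sustains the rostral FGF source and is also expressed by ventrally derived interneurons (chromosome 12, 118846329 to 118852576, plus strand). NSC libraries ran from 6.09 to 28.7 TPM (median 16.9), BP libraries from 1.70 to 4.78 (median 2.66) and NBN libraries from 0.464 to 3.59 (median 1.16). All BP libraries were below all NSC libraries at each of 8 stages. The nearest approach was at E15.5, with 16.4, 6.09, 12.1 and 10.6 TPM in NSC and 1.79, 1.72, 2.23 and 2.66 in BP. The log2 difference was -2.38 ± 0.10 between BP and NSC (limma adjusted p = 3.91e-29) and -3.02 ± 0.12 between NBN and NSC (limma adjusted p = 2.46e-29). Between NBN and BP it was -0.56 ± 0.13, under the minimum of 1. In the order of its group means, the 10 NSC groups came first and the lowest of them, E15.5, was apart from BP at E12.5.

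Interneuron and ventral forebrain markers were mostly lower in BP and NBN than in NSC, as Sp8 was. Of the 13 genes of that list, which includes the Sp8 paralog Sp9, 12 were called lower in BP than in NSC and 11 lower in NBN. The list summed to between 65.57 and 1235 TPM in NSC libraries of the shared stages and to between 9.163 and 67.89 in BP. Dlx2, which specifies ventral progenitors, ran from 12.7 to 387 TPM in NSC, whereas the BP range was 0.652 to 9.40. In NSC of E12.5, Sp8 stood at 12.2, 25.4 and 14.7 TPM in replicates 1 to 3, whose ventral sums were 202, 510.7 and 141.2 TPM. Across NSC stages the sum did not always follow Sp8. From E10.5 to E11.5 the mean sum rose from 118.4 to 469.6 TPM, while mean Sp8 fell from 18.43 to 12.97. At E18.5 both had their highest NSC means, at 1155 and 27.32 TPM. The part of ventral cells or their RNA in the Sp8 level of NSC libraries was not tested.

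Bhlhe22, a basic helix-loop-helix repressor of projection neurons, ran the other way (chromosome 3, 18054174 to 18057517, plus strand). NSC libraries ran from 0.722 to 243 TPM (median 54.1), BP libraries from 66.5 to 265 (median 199) and NBN libraries from 265 to 445 (median 322). It was higher in BP than in NSC by 1.44 ± 0.07 on the log2 scale (limma adjusted p = 3.19e-24) and higher in NBN than in NSC by 2.51 ± 0.10 (limma adjusted p = 1.62e-30). At E18.5 it stood at 15.6, 16.7 and 12.52 TPM in NSC, 260, 222 and 257 in BP, and 364, 378 and 338 in NBN. NBN libraries were above NSC libraries at 5 of 5 stages, and BP libraries were above NSC libraries at 5 of 8, with overlap at E12.5, E15.5 and E16.5. The share of all tested genes with NBN above NSC at each stage is not reported here. Between NBN and BP the difference of 0.74 ± 0.10 was not called. The highest group was NBN at E17.5, at 440 and 445 TPM, apart from the next, NBN at E18.5. Of the 9 genes of the neuron list, 4 were called higher in BP than in NSC and 7 in NBN. Their part in the Bhlhe22 levels was not tested.

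These were the calls between BP and NSC: 1 of 9 members higher and 2 lower, while 1.87% of tested genes were called higher and 6.22% lower. BP libraries were above NSC libraries at each of 8 stages for 0.432% of tested genes and no member, and below at each for 4.14% and Sp8. The median log2 difference of the 9 was 0.46, and that of all tested genes was -0.02. The other 6 members had adjusted p below 0.05 with smaller differences, all towards BP, from 0.16 for Nr2f1 to 0.82 for Fezf1.

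BP at E12.5 had the highest group means of Emx2, Lhx2, Nr2f1, Nr2f2 and Fezf1 in the series. All its libraries were above those of every other group for Emx2 and Lhx2, whereas its Nr2f1, Nr2f2 and Fezf1 values overlapped those of the next group in order. Emx2 stood at 119, 117 and 123 TPM in these BP libraries and at 58.2, 61.1 and 44.6 in NSC of the same stage. Lhx2 stood at 858, 951 and 984 TPM in BP and at 673, 555 and 472 in NSC, again without overlap. Fezf1 stood at 136, 116 and 52.2 TPM in BP and at 5.97, 11.8 and 3.12 in NSC. Nr2f2 overlapped, at 300, 196 and 79.1 TPM in BP and 109, 24.9 and 59.4 in NSC.

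Of the lists of other cell types, those of Cajal-Retzius cells and of the eye field and diencephalon also had high sums in BP at that stage. The list of 8 Cajal-Retzius genes, which mark the earliest cortical neurons, summed to 669.4, 660.9 and 712.8 TPM in BP at E12.5 and to 154.8, 179.9 and 134.5 in NSC. Over the 8 stages the list ran from 121.6 to 712.8 TPM in BP and from 14.97 to 204.2 in NSC, and 6 of its 8 genes were called higher in BP. The eye field and diencephalon list summed to 142.1, 123.6 and 91.6 TPM in BP at E12.5 and to 24.62, 32.3 and 15.4 in NSC. Of that list, Barhl2 made up 89.8 ± 3.82 TPM (SD, n = 3) and Otp 19.6 ± 16.48, while Rax was listed at 0 and Six6 stood at 0.105. Mean Tcf7l2 was lower in BP than in NSC, at 4.81 against 7.94 TPM, and so was Irx3, at 0.102 against 0.363. Sim1 was higher, at 3.11 against 0.195 TPM. Over the 8 stages 1 of the 8 tested genes of that list was called higher in BP and 0 lower, so its sum at E12.5 does not stand for the list as a whole. The part of both lists in the member levels was not tested. Without E12.5, a setting chosen after the data were seen, the difference of Fezf1 was 0.41 in place of 0.82, that of Nr2f2 0.30 in place of 0.46 and that of Emx2 0.13 in place of 0.26. For Nr2f1 it was 0.095 in place of 0.155, and its limma adjusted p went from 0.0126 to 0.156. Lhx2 moved little, at 0.43 in place of 0.47, and Emx1 went up, to 0.74 from 0.64. The calls of Pax6, Sp8 and Bhlhe22 were kept.

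At E14.5 all BP libraries were below all NSC libraries for 4 of these genes. Emx2 stood at 26.2, 23.3 and 21.8 TPM in BP and at 58.5, 51.9 and 34.8 in NSC. Lhx2 stood at 440, 425 and 384 TPM in BP and at 694, 688 and 498 in NSC. Nr2f1, at 339, 275 and 284 against 527, 584 and 432 TPM, and Nr2f2, at 55.0, 26.9 and 58.0 against 85.2, 84.0 and 88.9 TPM, showed the same separation. At E16.5 all 4 genes had every BP library above every NSC library. Emx2 then stood at 56.1, 48.2 and 49.0 TPM in BP against 24.5, 25.7, 26.5 and 34.4 in NSC, and Lhx2 at 719, 733 and 707 TPM against 350, 471, 485 and 534. From E17.5 to PN only Lhx2 kept this separation at each stage. The fractions overlapped again for Emx2 at E17.5, for Nr2f2 at E18.5 and PN, and for Nr2f1 at E17.5, E18.5 and PN. The contrasts over 8 stages thus averaged stages of opposite sign for these genes, and differences at single stages were not tested. The share of all tested genes separated in this way at E14.5 or at E16.5 was not computed. Whether 4 members is more than that share therefore cannot be said.

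Emx1 held steadier in BP than in NSC. Its BP libraries ran from 166 to 240.5 TPM from E12.5 to E16.5 and overlapped those of NSC up to E14.5. From E15.5 to PN all BP libraries were above all NSC libraries, for example at 207, 193, 205 and 202 TPM against 124, 188, 156 and 133 at E15.5. Its log2 difference over the 8 stages was 0.64 ± 0.05 (limma adjusted p = 2.24e-17), short of the minimum.

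**Figure D2:**
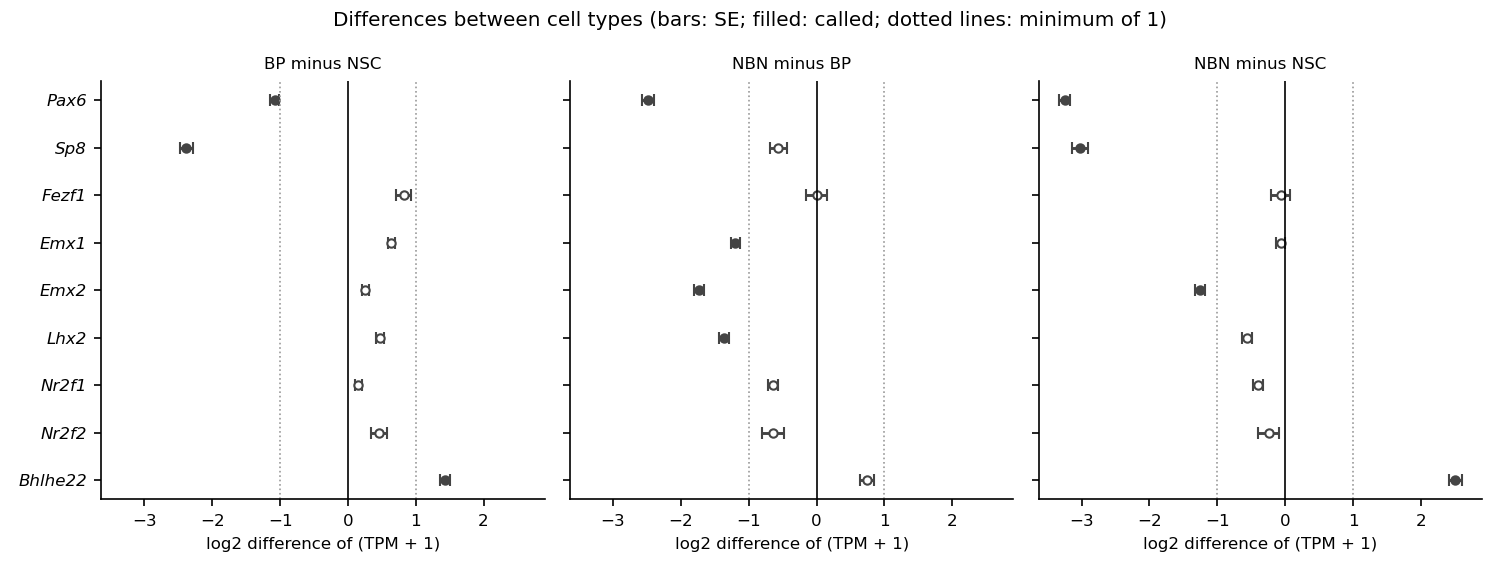
Log2 difference of TPM + 1 (x axis) of each member (rows) between cell types over their shared stages: BP minus NSC (8 stages), NBN minus BP and NBN minus NSC (5 stages each). Bars are SE, dotted lines mark the minimum of 1, filled points were called and open points were not. Pax6, Emx1, Emx2 and Lhx2 are filled and left of 0 for NBN minus BP.

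Pax6, Emx1, Emx2 and Lhx2 were lower in NBN than in BP, and the other 5 members were not called. Emx1 and Emx2 encode homeodomain factors related to Drosophila empty spiracles, Emx1 being a marker of the excitatory cortical lineage. Emx1 (chromosome 6, 85187438 to 85204462, plus strand) ran from 108 to 207 TPM in the 14 BP libraries of these stages and from 46.7 to 96.1 in the 14 NBN libraries, a log2 difference of -1.20 ± 0.07 (limma adjusted p = 1.35e-22). Emx2 (chromosome 19, 59458372 to 59465357, plus strand) ran from 39.2 to 67.0 TPM in BP and from 8.65 to 29.9 in NBN, a difference of -1.73 ± 0.07 (limma adjusted p = 4.66e-27). Neither pair of ranges overlapped.

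Lhx2, a LIM homeodomain factor (chromosome 2, 38339281 to 38369733, plus strand), ran from 552 to 733 TPM in BP and from 151 to 373 in NBN, a difference of -1.37 ± 0.07 (limma adjusted p = 6.16e-23). With Pax6, 4 of 9 members were lower in NBN and 0 higher, while 5.06% of tested genes were called lower and 4.36% higher. For each of these 4 genes all NBN libraries were below all BP libraries at each of 5 stages, a pattern that 18.6% of tested genes had, with the reverse in 11.8%. The median difference of the 9 members was -0.64, and that of all tested genes -0.07. The basal progenitor list moved with them: 8 of its 8 genes were called lower, and its sum ran from 1019 to 1804 TPM in BP and from 159.9 to 337.1 in NBN.

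Nr2f1 and Nr2f2, orphan nuclear receptors also named COUP-TFI and COUP-TFII, were not called in any comparison of cell types. Nr2f1 (chromosome 13, 78188973 to 78199757, minus strand) ran from 112 to 584 TPM in NSC (median 369), from 275 to 697 in BP (median 435) and from 154 to 482 in NBN (median 235). Its NBN libraries were below those of BP at E15.5 to E18.5 and above them at PN, with 462 and 482 against 394 and 435 TPM. Nr2f2 (chromosome 7, 70351944 to 70366735, minus strand) was likewise below BP at E15.5 to E18.5. At PN its libraries stood at 46.8 and 42.3 TPM in NBN against 42.2 and 35.1 in BP. There the cell types nearly met, at 42.338 TPM in the lower NBN and 42.213 in the higher BP library. Over the 5 stages the log2 differences of NBN from BP were -0.64 ± 0.08 for Nr2f1 (limma adjusted p = 1.78e-10) and -0.64 ± 0.17 for Nr2f2 (limma adjusted p = 0.000581). Without PN, chosen after the data were seen, both stood at -0.85 and remained uncalled.

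Between NBN and NSC, Bhlhe22 was higher and Pax6, Sp8 and Emx2 were lower, so that 1 of 9 members was higher and 3 lower. Of tested genes 6.51% were called higher and 12.6% lower. The median difference was -0.40 over the members and -0.13 over all tested genes. Emx2 differed by -1.26 ± 0.07 (limma adjusted p = 6.3e-23), and its NBN libraries were below NSC libraries at 5 of 5 stages. At PN it stood at 28.2 and 29.9 TPM in NBN and at 48.7, 49.4 and 49.5 in NSC. The share of all tested genes with NBN below NSC at each stage is not reported here.

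Emx1, Lhx2 and Nr2f1 changed sides with stage between NBN and NSC. At E15.5 Emx1 stood at 79.6, 96.1, 91.2 and 87.4 TPM in NBN, below the 124, 188, 156 and 133 of NSC. At E18.5 it stood at 57.6, 64.6 and 64.3 TPM in NBN, above the 29.8, 38.1 and 31.4 of NSC. Over the 5 stages the log2 difference of Emx1 was -0.07 ± 0.06 (limma adjusted p = 0.314), it was 0.07 under median ratio scaling, and without PN, chosen after the data were seen, it was -0.25 (limma adjusted p = 0.000869), still uncalled. Lhx2 was below NSC from E15.5 to E17.5 and above it at PN, with 320 and 373 TPM in NBN against 296, 315 and 305. Its difference over the 5 stages was -0.56 ± 0.07. Nr2f1 was likewise below NSC from E15.5 to E17.5 and above it at PN, with 462 and 482 TPM in NBN against 338, 329 and 421.5.

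**Figure D3:**
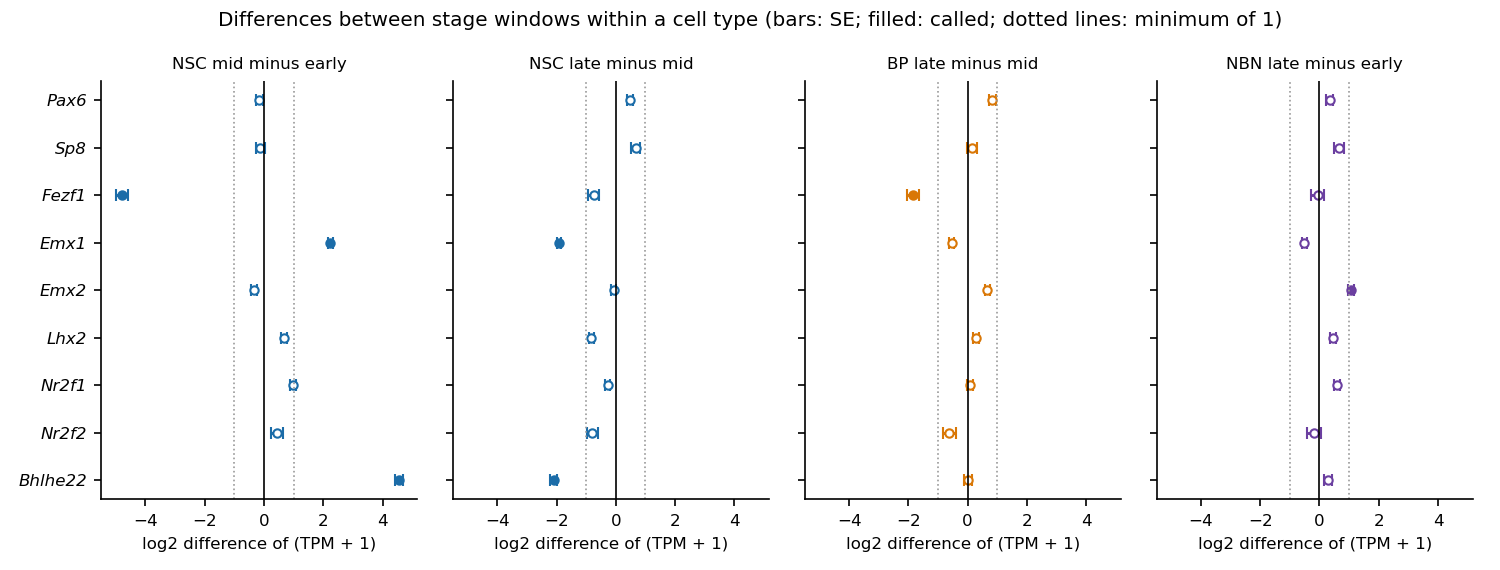
Log2 difference of TPM + 1 (x axis) of each member (rows) between stage windows: NSC mid (E13.5 to E15.5) minus early (E10.5 and E11.5), NSC late (E17.5 to PN) minus mid, BP late minus mid, and NBN late minus early (E15.5 and E16.5). Bars are SE, dotted lines mark the minimum of 1, and filled points were called. Emx1 and Bhlhe22 lie right of 0 in the first NSC contrast and left of it in the second.

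Across the onset of neurogenesis in NSC, Emx1 and Bhlhe22 rose and Fezf1 fell. The mid window of E13.5, E14.5 and E15.5 (11 libraries) was compared with E10.5 and E11.5 (6 libraries). Emx1 stood at 25.5, 21.7 and 28.5 TPM at E10.5, 59.4, 69.2 and 66.8 at E11.5, and 239, 198 and 252 at E12.5. Between the windows it rose by 2.24 ± 0.09 on the log2 scale (limma adjusted p = 1.18e-29), from 45.2 ± 22.2 to 198 ± 49.9 TPM (SD, 6 and 11 libraries). The libraries of these 3 stages did not overlap, each stage lying above the one before.

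Bhlhe22 stood at 0.722, 1.92 and 2.09 TPM at E10.5, 6.74, 8.75 and 9.57 at E11.5, and 69.4, 44.9 and 64.5 at E12.5. It reached 199, 243, 205 and 228 TPM at E15.5, and its rise of 4.56 ± 0.13 was the largest of the 9 (limma adjusted p = 3.07e-35). All 9 genes of the neuron list rose as well, and their sum went from a median of 1157 to 3882 TPM. Their part in the rise of Bhlhe22 was not tested.

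Fezf1 encodes a zinc finger repressor of the early forebrain (chromosome 6, 23245044 to 23248362, minus strand). It stood at 39.9, 42.1 and 49.8 TPM at E10.5 and at 52.5, 57.1 and 59.0 at E11.5. At E12.5 the NSC libraries were down to 5.97, 11.8 and 3.12 TPM, and at E14.5 to 0.287, 0.0790 and 0.0695. BP libraries went from 136, 116 and 52.2 TPM at E12.5 to 35.6, 15.3 and 9.81 at E13.5 and 0.970, 1.17 and 2.61 at E14.5. BP libraries were above NSC libraries at each of these 3 stages. Fezf1 was listed at 0 in 9 of 33 NSC, 8 of 23 BP and 9 of 14 NBN libraries. The part of the eye field and diencephalon list, which summed to between 29.64 and 85.43 TPM in early and 7.594 and 26.16 in mid NSC libraries, was not tested.

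With these 3 genes, 2 members rose and 1 fell, while 13.7% of tested genes rose and 5.26% fell. The median difference was 0.44 over the members and 0.14 over all tested genes. Nr2f1 lay just under the minimum at 0.98 ± 0.10 (limma adjusted p = 9.89e-13), going from 112, 165.01 and 188 TPM at E10.5 to 292, 354 and 316 at E11.5. Leaving out any 1 of 7 libraries put it between 1.00 and 1.06, the highest without NSC E10.5 replicate 3. Lhx2 stood at 0.68 and Emx2 at -0.34, both with adjusted p below 0.05. For Pax6 (-0.16), Sp8 (-0.12) and Nr2f2 (0.44) it was above. Early NSC libraries also held more erythroid transcripts, which summed to between 1681 and 9566 TPM against 26.62 and 420.3 in the mid window. Their part was not tested.

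In late NSC libraries, of E17.5, E18.5 and PN (9 libraries), Emx1 and Bhlhe22 fell back. Emx1 fell by 1.92 ± 0.08 on the log2 scale (limma adjusted p = 5.87e-29), to 29.8, 38.1 and 31.4 TPM at E18.5. Bhlhe22 fell by 2.10 ± 0.12 (limma adjusted p = 1.04e-22), from 131 ± 73.9 to 32.6 ± 29.5 TPM (SD, 11 and 9 libraries). Of the 9 members 0 rose and 2 fell, while 9.31% of tested genes rose and 2.45% fell. The median difference was -0.74 over the members and 0.12 over all tested genes.

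Lhx2 stood at -0.83 ± 0.09 (limma adjusted p = 1.72e-12), and at -1.08 with a late window of E18.5 and PN, which is past the minimum. Its NSC libraries stood at 236, 272 and 223 TPM at E18.5, below the 276.7 of the lowest library of E10.5. Nr2f2 at -0.79, Fezf1 at -0.74 and Nr2f1 at -0.28 were also below 0, and Pax6 at 0.47 and Sp8 at 0.68 above it. These 6 members had adjusted p below 0.05 without reaching the minimum, and Emx2 stood at -0.06. Other lists moved with the stage: 6 of 9 neuron and 7 of 8 Cajal-Retzius genes fell, and 7 of 7 oligodendrocyte precursor, 7 of 7 astroglia and 6 of 9 stem cell genes rose. Of 13 ventral genes 7 rose and 2 fell, and their sum ran from 350.3 to 1235 TPM in late and from 65.57 to 968.9 in mid NSC libraries. The oligodendrocyte precursor sum ran from 392.4 to 1751 TPM in late and from 5.203 to 46.28 in mid NSC libraries. Their part in the member changes was not tested.

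In BP between the mid and late windows (10 and 7 libraries) only Fezf1 was called, so that 0 members rose and 1 fell. Of tested genes 3.29% rose and 1.42% fell, and the medians were 0.08 for members and 0.12 for all. Fezf1 fell by 1.83 ± 0.20 (limma adjusted p = 2.23e-11), from a range of 0 to 35.6 TPM to one of 0 to 0.117, and the ranges overlapped at E15.5, where 2 of 4 libraries were listed at 0. With a pseudocount of 5 TPM the difference was -0.86 and the call was lost. Pax6 stood at 0.84 ± 0.12 (limma adjusted p = 2.37e-08), short of the minimum, from 39.5, 39.8 and 34.6 TPM at E13.5 to 105.4 and 113 at PN. Emx2 stood at 0.67, Lhx2 at 0.27, Emx1 at -0.54 and Nr2f2 at -0.62, all with adjusted p below 0.05 and under the minimum. Emx1 held between 108 and 156 TPM in late BP libraries, when NSC libraries had 29.8 to 106.

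In NBN only Emx2 was called between E15.5 and E16.5 (7 libraries) and the later window (7 libraries). It stood at 9.19, 9.37, 10.005 and 9.56 TPM at E15.5, 10.9, 9.64 and 8.65 at E16.5, 20.4 and 18.6 at E17.5, 18.3, 16.02 and 14.97 at E18.5, and 28.2 and 29.9 at PN. The later libraries were all above the earlier ones, and Emx2 rose by 1.05 ± 0.10 (limma adjusted p = 4.47e-12). The call was lost with a pseudocount of 5 TPM, at 0.84, and with quantile normalization, at just under the minimum. So 1 member rose and 0 fell, while 1.27% of tested genes rose and 1.06% fell, and the medians were 0.34 and 0.03. In the same contrast 3 of 13 ventral, 4 of 10 microglia, 3 of 7 astroglia and 2 of 7 oligodendrocyte precursor genes rose, and 3 of 8 basal progenitor genes fell. Their part in the Emx2 rise was not tested. Sp8 at 0.66, Nr2f1 at 0.59, Lhx2 at 0.46, Pax6 at 0.34 and Emx1 at -0.51 had adjusted p below 0.05 without reaching the minimum.

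Whether the late change differed between BP and NSC was tested as an interaction, the log2 change of BP less that of NSC. It was called higher for 3 members and lower for 1, while 2.86% of tested genes were called higher and 6.85% lower. The median was 0.37 over the members and 0.01 over all tested genes. Emx1 differed by 1.38 ± 0.11 (limma adjusted p = 3.9e-15), with a change of -0.54 in BP and -1.92 in NSC. Lhx2 differed by 1.103 ± 0.13 (limma adjusted p = 1.93e-10), with 0.27 in BP and -0.83 in NSC. At E18.5 Lhx2 stood at 580, 552 and 576 TPM in BP against 236, 272 and 223 in NSC.

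Bhlhe22 differed by 2.11 ± 0.17 (limma adjusted p = 3.01e-15), with 0.01 in BP and -2.10 in NSC. Fezf1 differed the other way, by -1.09 ± 0.27 (limma adjusted p = 0.0005), with -1.83 in BP and -0.74 in NSC. With a pseudocount of 5 TPM the interaction was -0.58 and not called, and with 0.1 TPM the NSC change was -1.73. The call also rested on single libraries. It was lost without NSC E13.5 replicate 3 (-0.992) or 4 (-0.999), without BP E13.5 replicate 1 (-0.926) and, by the narrowest margin, without BP E14.5 replicate 3. The neuron list again moved with Bhlhe22, 5 of its 9 genes having a higher interaction and 0 a lower one. Its sum ran from 4249 to 5957 TPM in late BP and from 1171 to 2935 in late NSC libraries, and its part was not tested.

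**Figure D4:**
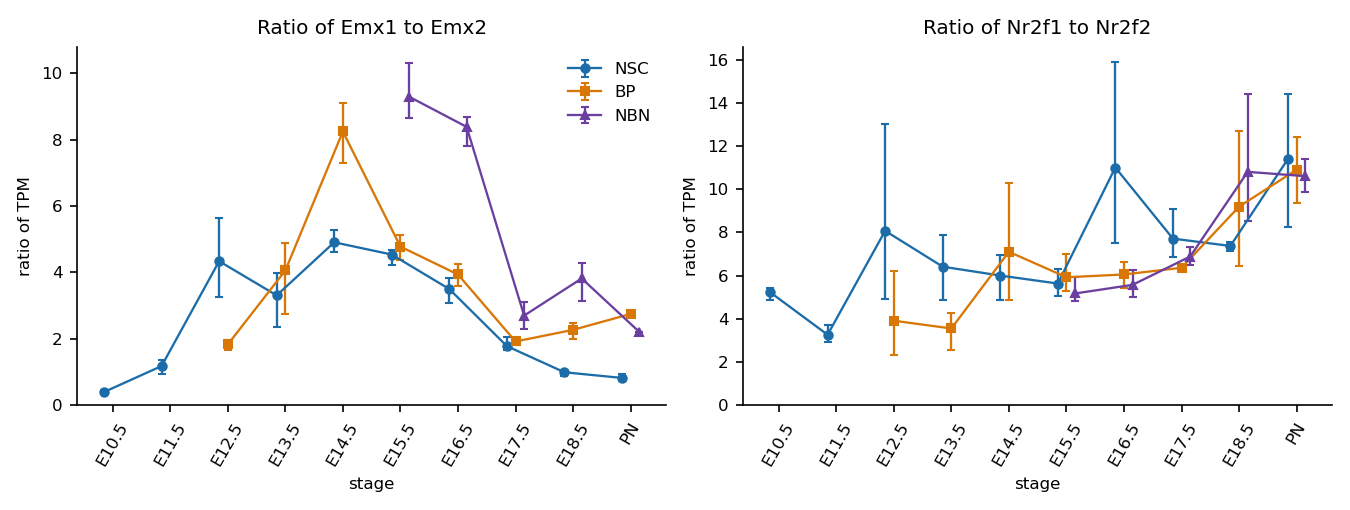
Ratio of TPM levels within a library (y axis) for the paralog pairs Emx1 to Emx2 and Nr2f1 to Nr2f2, against stage (x axis). Points are group means and bars run from the lowest to the highest library. The Emx1 to Emx2 ratio of NSC is under 1 at E10.5, near 5 at E14.5 and under 1 again at PN.

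The Emx paralogs traded places in NSC. The ratio of Emx1 to Emx2, per length within a library, was 0.397 ± 0.0641 at E10.5 (SD, n = 3), 1.18 ± 0.206 at E11.5 (n = 3), 4.91 ± 0.338 at E14.5 (n = 3), 0.992 ± 0.0993 at E18.5 (n = 3) and 0.821 ± 0.110 at PN (n = 3). In BP it was 1.83 ± 0.149 at E12.5 (n = 3), 8.25 ± 0.897 at E14.5 (n = 3) and 2.75 ± 0.0924 at PN (n = 2). In NBN it was 9.30 ± 0.680 at E15.5 (n = 4) and 2.21 ± 0.0119 at PN (n = 2). Emx1 thus exceeded Emx2 in every library of BP and NBN, whereas Emx2 exceeded Emx1 in all NSC libraries of E10.5 and PN. No such crossing was seen for the Nr2f pair, where Nr2f1 exceeded Nr2f2 in all 70 libraries, by a ratio of 2.32 to 15.9 (7.03 ± 2.92, SD). Its lowest group mean was 3.26 ± 0.408 in NSC at E11.5 (n = 3) and its highest 11.4 ± 3.06 in NSC at PN (n = 3). Replicates of Nr2f2 spread widely, and in the order of its 23 group means all 22 neighbouring pairs overlapped.

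For 3 members, transcripts of other genes could enter the counts. Emx2 shares 264 exonic bases with the antisense gene Emx2os, Nr2f1 shares 123 with A830082K12Rik, and Nr2f2 shares 643 with B130024G19Rik, which was listed at no more than 4.38 TPM. Strand use is not stated for these libraries, so reads from such partners cannot be told apart. Of the 50-base windows of annotated transcripts, 7.18% of Emx2, 7.35% of Nr2f2, 1.3% of Nr2f1 and 0.443% of Pax6 also occurred in another gene, and none of the other 5 members. Nr2f1 and Nr2f2 shared 10 such windows.

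The genes most like each member were taken from 9211 genes that reached a mean of 20 TPM in a group, by Pearson's r over the 23 group means of log2(TPM + 1). Groups share reporter line, stage and scaling, so r is a description. Sp8 came closest to Cenpm (r = 0.972), the stem cell factor gene Sox9 (0.971) and Cdca7 (0.968), and Pax6 to Pak4 (0.975), Acads (0.975) and Snx8 (0.973). Bhlhe22 came closest to the neuronal genes Jph4 (0.982), Rab3a (0.977) and Myt1l (0.977). Fezf1 was nearest to Crabp2 (0.951), Filip1 (0.944) and Lin28b (0.943), a regulator of developmental timing.

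Emx1 was nearest to Nxph4 (0.935), Vat1 (0.929) and Bcar1 (0.917), while Zic1 (0.942) and Pard3 (0.908) were among those nearest to Emx2. Values were lower for Lhx2 with Rgag4 (0.908), Serping1 and Ube2r2 (both 0.880), for Nr2f1 with Grik2 (0.901), Igsf8 (0.864) and Synpr (0.841), and for Nr2f2 with Ebf3 (0.844), Lhx9 (0.828) and St18 (0.820). Among the 9 members the highest value joined Pax6 and Sp8 (0.84), followed by Emx2 with Lhx2 (0.79) and Lhx2 with Nr2f1 (0.78). The lowest was that of Sp8 with Bhlhe22 (-0.74), and the Emx pair stood at 0.30.

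**Figure D5:**
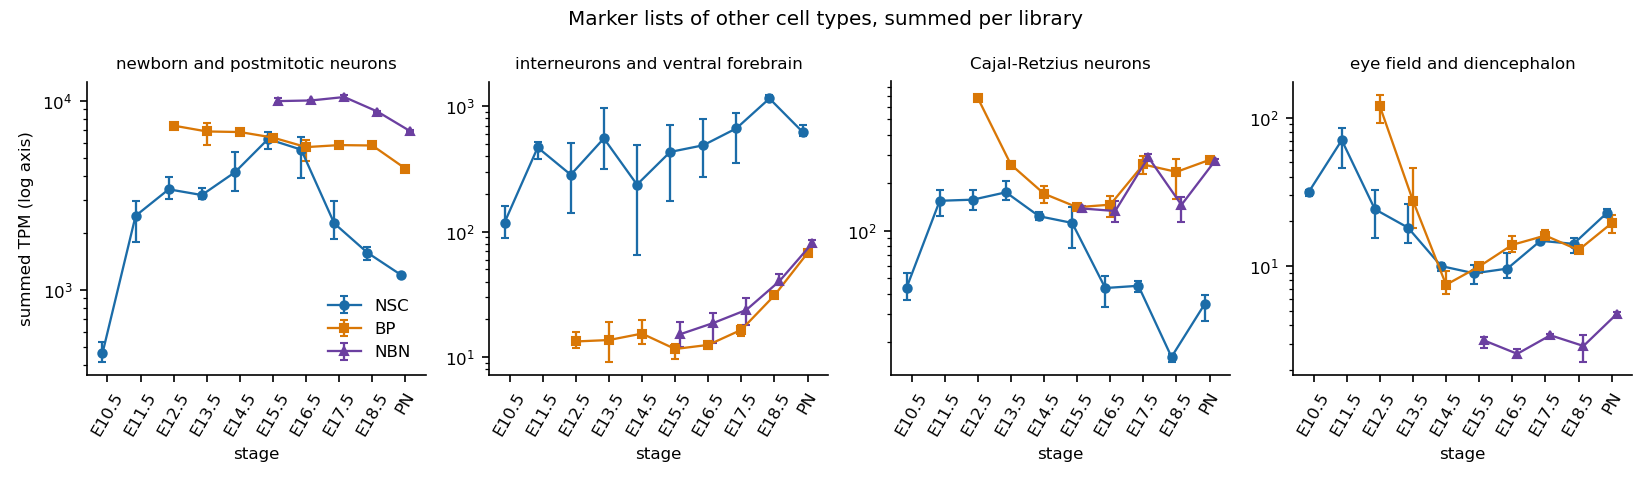
Summed TPM (y axis, log scale) of 4 marker lists against stage (x axis) in NSC, BP and NBN. Points are group means and bars run from the lowest to the highest library. The interneuron and ventral forebrain sum lies above 65 TPM in all NSC libraries and the Cajal-Retzius sum of BP is highest at E12.5.

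Of a list of 28 other transcription factors of telencephalic patterning 27 were tested. For this and the lists that follow, the counts stand beside the shares of all tested genes given above for each comparison. In BP against NSC 1 was higher and 8 were lower, in NBN against BP 1 and 11, and in NBN against NSC 0 and 19. Sall3 (-3.46) and Nr2e1 (-2.70), the latter a nuclear receptor that maintains stem cells, were among those lower in BP, and Lhx9 (1.37), the Lhx2 paralog, was higher. The list medians were -0.65, -0.92 and -1.65 in these comparisons, beside -0.02, -0.07 and -0.13 for all genes. Over time in NSC 6 rose and 4 fell from early to mid, with Meis2, a TALE homeodomain factor, at 2.11 and Otx2, of the early forebrain, at -3.91 ± 0.23. From mid to late 5 rose and 3 fell, with the FGF-responsive Etv4 (3.84) and Etv5 (2.42) rising and Fezf2 (-1.88), the Fezf1 paralog, falling. In late BP 5 rose and 2 fell, and in late NBN 1 rose and 3 fell, with Fezf2 at -1.72 and -2.97. The interaction was higher for 2 and lower for 3.

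Of 19 signals and antagonists of the patterning centres, 2 rose and 12 fell in NSC from early to mid, with a list median of -1.20 beside 0.14 for all genes. Shh went from 14.54 to 0.262 TPM on average (-3.57 ± 0.16), Rspo1 from 42.1 to 3.75 (-3.41 ± 0.16) and the hem signal Wnt8b from 35.6 to 4.27 (-3.16 ± 0.15). In BP against NSC 0 were higher and 5 lower, led by Fgf15 (-2.20), in NBN against BP 2 and 3, and in NBN against NSC 1 and 6. From mid to late 3 rose and 1 fell in NSC, led by Bmp7 (2.46), 3 and 2 in BP, and 0 and 2 in NBN from early to late. The interaction was higher for 0 and lower for 2.

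Of 17 area marker genes 0 were higher and 1 lower in BP against NSC (Igfbp5, -2.78), 4 and 0 in NBN against BP, led by Tenm3 (1.84), and 4 and 1 in NBN against NSC. From early to mid NSC 5 rose and 3 fell, led by Cdh8 (2.76), and from mid to late 4 rose and 0 fell. Of all tested genes 13.7% rose and 5.26% fell in the former, and 9.31% rose and 2.45% fell in the latter. The list medians were 0.75 and 0.11 there, beside 0.14 and 0.12 for all genes. In late BP none was called, and in late NBN 2 rose, with Lmo4 at 1.00, and 4 fell, led by Lmo3 (-1.45). The interaction was higher for 1 and lower for 5.

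Among 14 paralogs and partners of the members, Prdm8, which forms a repressor complex with Bhlhe22, was called in the same directions as Bhlhe22 in BP against NSC (1.85), NBN against NSC (1.94), early to mid NSC (4.68), mid to late NSC (-2.14) and the interaction (2.04). Between NBN and BP they parted, though Bhlhe22, the higher in NBN, was not called there. Mean Prdm8 was lower in NBN from E15.5 to E18.5, with 107.5 against 143.5 TPM at E18.5. At PN it was higher, with 84.3 against 75.16 TPM. Sp9 was lower in BP than in NSC (-3.87), as Sp8 was. Ldb2, an adaptor of LIM homeodomain factors, was higher in NBN than in BP (3.10 ± 0.13, from 7.85 to 82.3 TPM on average), where Lhx2 was lower. In order of comparison, 2 were higher and 1 lower in BP against NSC, 2 and 2 in NBN against BP, and 4 and 2 in NBN against NSC. From early to mid NSC 5 rose and 0 fell, from mid to late 2 rose and 4 fell, and 0 and 2 in BP and 0 and 3 in NBN. The list medians were 0.39 and -0.33 in the NSC comparisons, beside 0.14 and 0.12 for all genes. The interaction was higher for 2 and lower for 1. Lhx9 and Fezf2 stand in both this list and that of patterning factors.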

How the data were processed

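Cells positive for GFP were sorted by FACS from dissected dorsal cortex and RNA libraries were read as short single ends, per the labels' protocols. The sources used here do not give the step that separated BP from NBN. The authors deposited TPM per gene, and per the submitters' processing notes kallisto 0.43.0 was used, with GRCm38.p2 and mm10 as build names. TPM is scaled to a common total, so a large change in some genes moves all others.

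The members and lists were chosen with earlier results of these data known. Tests covered the 15508 genes whose mean reached 1 TPM in any group. In R 4.3.3, limma 3.58.1 was fitted to log2(TPM + 1) with a mean for each of the 23 groups, a variance trend and 47 residual degrees of freedom, and stages weighed equally in contrasts. All p-values are two-sided. Named genes were the 9 members, at most 3 called genes a direction of each list, and the 3 genes most like each member. A few genes that this rule or the marker lists would name are not reported here. Alternatives covered pseudocount, filter, scaling, variance model, windows, replicate numbers and each library left out. The fit was tested on simulated data. Coordinates are from GENCODE M21 (GRCm38).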

Additional observations from a re-analysis of the deposited data

Results flagged for a closer look

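Among 44 sets of 4 libraries of a member, 5 held a library far from the other 3, where chance gives about 1 in 20. Pax6 stood at 181.42 TPM in NSC E16.5 replicate 4, with the others between 89.007 and 98.056. Pax6 stood at 73.125 TPM in BP E15.5 replicate 1, with the others between 63.877 and 64.257. Both Nr2f genes were low in NBN E15.5 replicate 1, Nr2f1 at 154.42 TPM against 213.12 to 219.94 and Nr2f2 at 26.077 TPM against 42.818 to 45.233. Fezf1 was at 0.083312 TPM in NBN E15.5 replicate 2 and listed at 0 in the other 3. With the other 3 at 0, any value above 0 is flagged. The Fezf1 flag therefore does not measure distance and should not be weighed against the rate of 1 in 20.

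The late change differed between BP and NSC by the interaction term for 4 members. The log2 values were 1.380 for Emx1, 1.103 for Lhx2, -1.089 for Fezf1 and 2.109 for Bhlhe22.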

How the results depend on the processing

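Of 945 alternatives to 72 member results, 928 kept the direction and the side of the threshold, and 60 results did so under every alternative run. The cause of the changes below was not tested. With pseudocounts of 0.1 and 5 TPM, the called genes went from 1255 to 2031 and 634 for BP against NSC, from 1461 to 2256 and 729 for NBN against BP, from 1824 to 2788 and 918 for late NSC, from 730 to 1534 and 285 for late BP, and from 361 to 893 and 132 for late NBN. With 5 TPM they went from 2961 to 1791 for NBN against NSC, from 2944 to 1625 for mid NSC and from 1505 to 780 for the interaction. An early window that includes E12.5 gave 1828 for mid NSC. Members called in late BP went from 1 to 0 with 5 TPM (Fezf1, -0.86). In late NBN they went from 1 to 2 with 0.1 TPM (Sp8, 1.12), and to 0 with 5 TPM and with quantile normalization. With 0.1 TPM Fezf1 stood at -1.73 in late NSC, and with 5 TPM at -0.58 in the interaction. Differences near 0 changed sign: Emx1 between NBN and NSC to 0.071 (median ratio scaling) and 0.000 (quantile), and in late BP Nr2f1 to -0.054 (median ratio), Sp8 to -0.085 (quantile) and Bhlhe22 to -0.123 (median ratio) and -0.144 (late window of E18.5 and PN). Leaving out each library in turn gave -0.012 to 0.021 for Fezf1 between NBN and BP and -0.020 to 0.046 for Bhlhe22 in late BP, neither called.

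The share of called genes that were higher moved by over 10 points from 23.1% to 33.3% (BP against NSC, quantile), 34.1% to 49.4% (NBN against NSC, quantile), 72.3% to 52.7% and 52.1% (mid NSC, median ratio and quantile), 79.2% to 57.8% (late NSC, quantile), 69.9% to 56.4% and 49.9% (late BP), and 54.6% to 73.2% and 40.2% (late NBN, 0.1 and 5 TPM). With the replicate number as a block, called genes were 1259, 1461, 2961, 2964, 1855, 733, 357 and 1512 in the order of the 8 comparisons, and no member call changed. Over 51 pairs of same-numbered libraries the correlation of their deviations ran from -0.235 to 0.462 (median 0.0439), over 0.1 in 18. The pool joined pairs of BP with NBN, which share a reporter line, and pairs with NSC, from another line. It therefore cannot show whether same-numbered libraries belong together. Depth could not be read from TPM, so detection limits were not computed.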
